A study of Mus musculus with 140 samples.

Results

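The clusters described here are stretches of mouse brain RNA that were pulled down with an antibody against N6-methyladenosine (m6A) and that lay close to a stop codon. A cluster belonged to the set when its midpoint fell, on the gene's strand, in coding sequence or 3′ UTR within 200 exonic bases of the stop codon of the longest-coding transcript of a protein-coding gene (GENCODE vM21, mm10). Across the 38 m6A immunoprecipitation (IP) libraries, 1197816 of 6907427 listed clusters, or 17.3%, met this rule, and 662950 of them were enriched over their own input library at p of 0.001 or less. They were grouped into 21612 windows, 1 per gene, each holding the stop codon and up to 200 exonic bases on either side. The set was defined by position, so its members lie near the stop codon by rule. Among enriched clusters up to 1000 bases from the stop codon, mean density was highest in the first 100 bases of the 3′ UTR in all 6 groups.

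m6A is written on mRNA in the nucleus by the METTL3 and METTL14 methyltransferase with its partner WTAP, mainly at the DRACH motif, in which D is A, G or T, R is A or G, H is A, C or T and the third base is the methylated A. The mark is known for its concentration around stop codons and in long terminal exons, and it is read by YTH proteins and removed by FTO and ALKBH5. When a stop codon of the form TGA or TAA is followed by C and then A, C or T, the stop codon itself forms part of a DRACH motif.

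Cortex and striatum were taken at 3 months from R6/2 mice (B6CBA-Tg(HDexon1)62Gpb/3J), which carry exon 1 of human HTT with an expanded repeat as a transgene, and from the corresponding non-transgenic (NT) mice. There were 8 libraries per region and genotype, 4 of each sex. A further 6 libraries came from cortex of C57Bl/6 males given PBS or 500 ug of an antisense oligonucleotide (ASO) directed at TDP-43 into the ventricle at 5 weeks and collected 2 weeks later, 3 per treatment. The treatment protocol gives striatum for these 6 and the sample labels give cortex, which was followed. The labels give their age as 2 months. R6/2 is a fragment model, in which a short piece of mutant huntingtin is made in addition to the mouse protein. Nothing in the labels says which libraries of the 2 regions came from the same mouse, so p-values measure the spread between these libraries. In bulk tissue, fewer cells of a type and less RNA per cell cannot be told apart.

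Each library listed between 137223 and 251972 clusters in all and between 24038 and 45969 in stop windows, of which 49.6% to 63.0% were enriched. Read depth is unknown, because the lists give a p and a log2 fold per cluster and no reads. Libraries of the 2 sexes stood apart. The median log2 fold over input of listed stop-window clusters lay between 1.00 and 1.19 in the 16 female libraries and between 1.36 and 1.62 in the 16 male libraries of the R6/2 experiment, without overlap. Sex and any batch that goes with it cannot be told apart, so sex was kept in each comparison that used both. Labelled region was checked on listed clusters of 10 markers each: genes of striatal projection neurons held 207 to 416 clusters in striatal and 116 to 189 in cortical libraries, whereas genes of cortical excitatory neurons held 102 to 186 and 180 to 227, and no marker was at 0 throughout. In the 6 libraries of the antisense experiment the striatal genes held 201 to 218 clusters and the cortical genes 260 to 268. The cortical genes thus held more there, which is the order of the medians in cortical libraries (143.5 and 195.5) and not in striatal ones (289 and 132).

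The sequences below are the DRACH motifs nearest the middle of the window positions that enriched clusters covered in the most striatal NT libraries, for windows on which the striatal comparison turns. Where a window was covered nearly throughout, as in Drd1 and Lrrc10b, that is close to the middle of the window. They run 5′ to 3′ on the gene's strand with 12 bases on each side of the A of the motif, the motif being in capitals, and were read from the mm10 assembly (GRCm38). The first 4 are windows with a lower median of covered bases in R6/2 striatum, the next 4 are windows of striatal projection neuron genes whose covered stretch stayed nearly the same length, and Scn9a is the named window with the largest increase.
Gpm6b, chrX:166387068-166387092, plus strand: tcgctcaaaaGAACAactcaattct
Cd4, chr6:124866608-124866632, minus strand: agtgagaagaAGACCtgccagtgcc
Fgf3, chr7:144842961-144842985, plus strand: gcatacaggtGGACTggctgtggcc
Kifc2, chr15:76667422-76667446, plus strand: cttgactcttGAACCtccaggggac
Drd1, chr13:54052856-54052880, minus strand: tacccacagcGGACAgcattcaacc
Adcy5, chr16:35303777-35303801, plus strand: cagaggattgGAACAgcttttgtgc
Penk, chr4:4133957-4133981, minus strand: agtggtggatGGACTaccagaagag
Lrrc10b, chr19:10456468-10456492, minus strand: ggcccaccagGGACAgcctccgagc
Scn9a, chr2:66483321-66483345, minus strand: ggtctatgccAAACTctttttatca
The A of the Gpm6b motif lay 19 bases before the stop codon, that of Fgf3 and of Drd1 13 bases before, that of Kifc2 22 bases before, that of Cd4 45 bases before, that of Lrrc10b 41 bases before and that of Penk 128 bases before, all in coding sequence. The Adcy5 motif lay 48 bases and the Scn9a motif 85 bases past the stop codon in the 3′ UTR. Windows held several motifs each (3 in Penk and 12 in Drd1), so the one shown is not known to be the methylated one.

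Enriched clusters rose in density through the last coding bases and were densest in the first part of the 3′ UTR. Over the 38 libraries the median density was 11.6 per 10 kb of exon in coding sequence 1000 to 201 bases upstream of the stop codon, 20.6 at 200 to 101 bases and 31.5 in the last 100 bases. It was 44.2 in the first 100 bases of the 3′ UTR (lowest library 38.3, highest 64.8), 42.1 in the next 100 and 17.5 at 201 to 1000 bases. The lowest library value of the first 100 UTR bases lay above the highest value of coding sequence farther than 200 bases upstream (17.6). The neighbouring zones overlapped it across libraries, with 26.8 to 48.5 in the last 100 coding bases and 35.2 to 62.5 in UTR bases 101 to 200. In NT cortex, the density in coding sequence 1000 to 201 bases upstream was 10.1 ± 1.05 (SD, n = 8) against 11.4 ± 1.27 (SD, n = 8) in R6/2 cortex, while in striatum it was 11.7 ± 0.70 and 12.3 ± 1.57 (SD, n = 8 each).

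**Figure D1:**
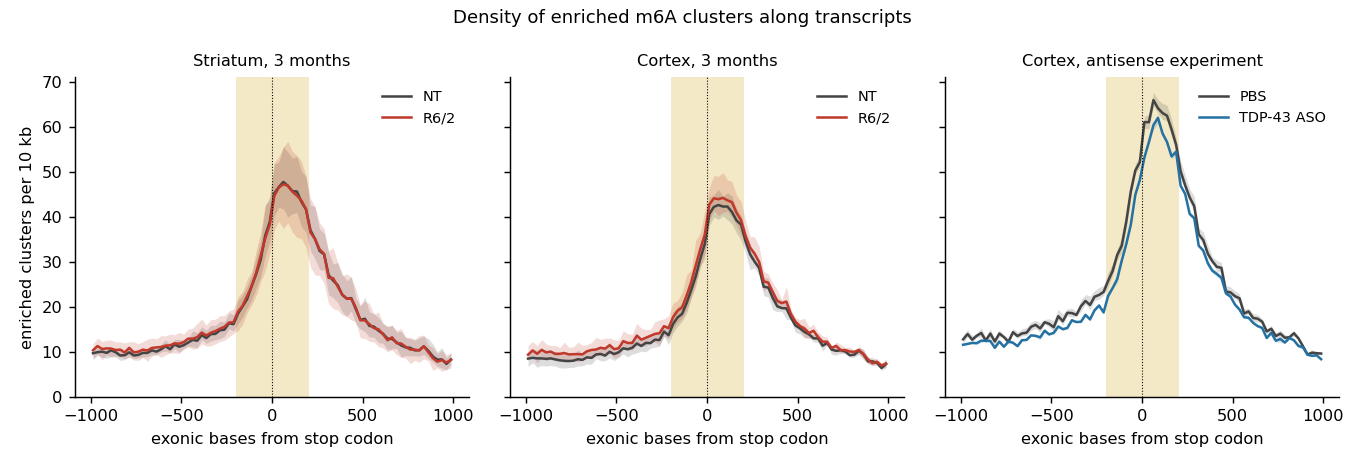
Mean density of enriched clusters (clusters per 10 kb of exon, in 25-base bins) by exonic distance from the stop codon, with the lowest to highest library as a band, for striatum, cortex and the antisense experiment. The shaded stretch is the window of 200 bases on each side, and all groups peak within it on the 3′ UTR side.

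The exon that holds the stop codon carried nearly all of the window's clusters. Upstream of the stop codon, 96.8% of enriched clusters (lowest library 93.9%, highest 97.3%) lay in the exon of the stop codon, which held 73.3% of the upstream bases. Within that exon the density climbed with distance from its start, from 4.75 per 10 kb in the first 50 bases to 15.6 at 50 to 100, 35.7 at 100 to 200 and 54.3 at 200 to 400 bases (medians of 38 libraries). In the preceding exons it was 2.59, 3.01 and 4.80 per 10 kb at 0 to 50, 50 to 100 and 100 to 200 bases before that start. All these bins were limited to the 200 exonic bases upstream of the stop codon. They therefore draw on different genes and exon lengths, and do not follow the same exons. A cluster was placed by its midpoint and had a median length between 49 and 91 bases by library, so densities within about one cluster length of an exon edge also reflect where a cluster can be centred.

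A stop codon followed by C was covered more often than the other contexts. Of 12113 windows listed in at least 19 of the 38 libraries, an enriched cluster covered the stop codon in 34.8% (median library). Among the 1900 of them whose stop codon was part of a DRACH motif the share was 37.9%, against 34.1% of the 10213 others, and it was the higher in 38 of 38 libraries. TGA followed by C (1442 windows) had 37.9% and was the highest of the 4 TGA contexts in 38 libraries, TAA followed by C had 36.5% (highest in 32) and TAG followed by C, which makes no DRACH motif, had 36.0% (highest in 27). TAA followed by A was lowest, with 31.3%. Windows with an enriched cluster anywhere were also more frequent in the DRACH class, 58.7% against 55.8% (median library). By that share TAG followed by C had 59.8% and TAA followed by A 51.3%. Cover of the stop codon was not set against this share. The same windows were read in every library, and gene expression and base composition were not matched between the classes.

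**Figure D2:**
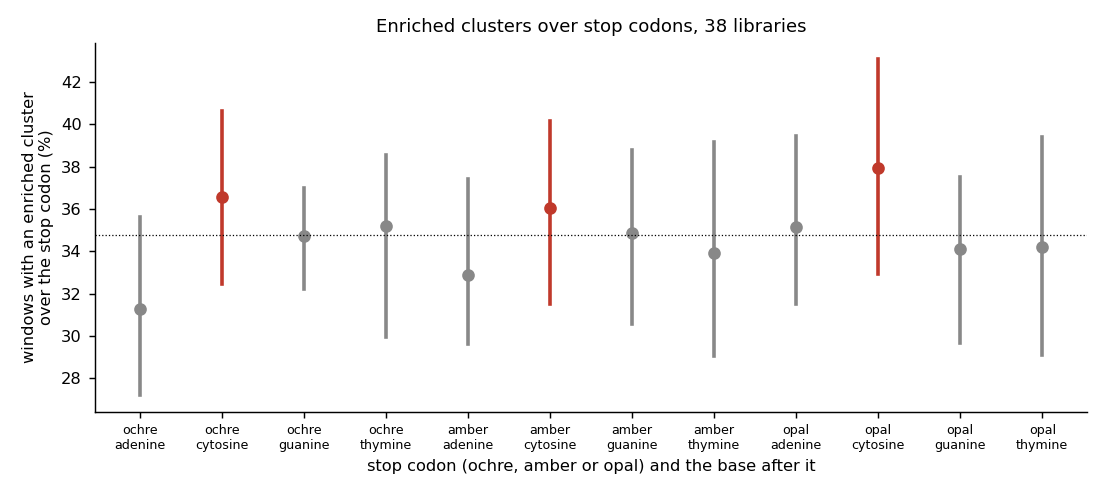
Share of windows (percent) in which an enriched cluster covered the stop codon, by stop codon (ochre TAA, amber TAG, opal TGA) and next base, as the median (point) and the lowest to highest (bar) of 38 libraries, with cytosine in red and the share over all windows as a dotted line. For each stop codon, cytosine has the highest median, up to 37.9% for opal.

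The known m6A motifs were more frequent around enriched clusters than in the windows as a whole. Motifs were searched on the gene's strand in the 51 bases centred on the midpoint. DRACH was found around 79.4% of enriched stop-window clusters (76.8% to 81.2% by library) against 66.7% of all 51-base stretches of stop windows. GGACT, the form of DRACH most often reported as methylated, was found around 13.2% (12.5% to 14.3%) against 6.57%. AGACT had 11.1% against 6.55%, GAACT 9.58% against 5.72% and TGACT 8.88% against 6.04%. TGTGT, a short form of the GU repeat that TDP-43 is known to bind, had 6.45% (5.99% to 6.81%) against 6.60%.

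Library-wide shares differed little between genotypes. In cortex, stop windows held 25.7%, 26.5% and 28.1% (lowest, median and highest of 8) of enriched exonic clusters in R6/2 libraries and 26.3%, 27.8% and 29.4% in NT libraries. The groups overlapped, and the means differed by -1.13 percentage points (26.6% ± 0.85 against 27.7% ± 1.13, SD, n = 8 each; two-sided exact permutation test within sex, p = 0.00367, adjusted p = 0.0422 over 23 such tests), with -1.09 in females and -1.17 in males. The adjusted p was between 0.0638 and 0.112 when any one of the 4 R6/2 male or the 4 NT female libraries was left out. In striatum the difference was -0.88 points (26.5% ± 1.14 against 27.4% ± 1.29, SD, n = 8 each; exact permutation p = 0.029, adjusted p = 0.111). A cluster was centred upstream of the stop codon in 37.3% ± 1.01 of cases in NT cortex and 38.4% ± 0.47 in NT striatum (SD, n = 8 each; exact permutation p = 0.000816, adjusted p = 0.0188, or between 0.061 and 0.0638 without any one of the 4 striatal NT male or the 4 cortical NT female libraries), and in 38.04% ± 1.04 in R6/2 cortex, which differed from NT cortex by 0.76 points (exact permutation p = 0.0139, adjusted p = 0.0638). With 4 libraries of each sex per group, the lowest and highest values of the share in NT striatum were 27.6% and 29.3% in females and 26.2% and 26.4% in males.

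**Figure D3:**
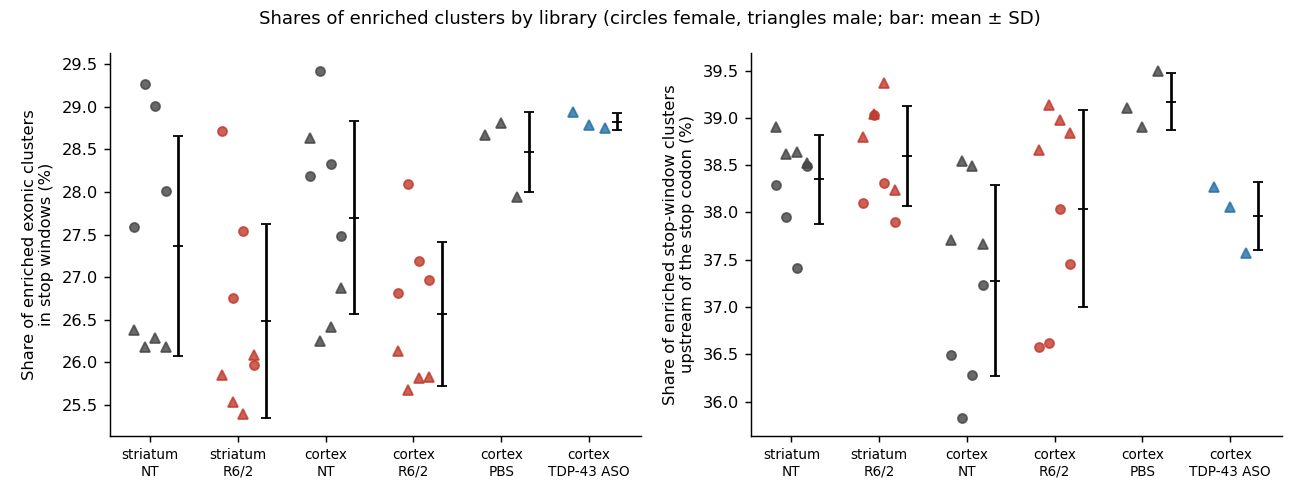
Share of enriched exonic clusters in stop windows (left, percent) and share of enriched stop-window clusters centred upstream of the stop codon (right, percent), 1 point per library (circles female, triangles male) with the group mean ± SD. In cortex the R6/2 libraries lie between 25.7% and 28.1% on the left and the NT libraries between 26.3% and 29.4%.

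Sites of TDP-43, an RNA-binding protein, were taken as positions where at least 4 of the 16 TDP-43 libraries of a region had an enriched cluster, 37174 sites in cortex and 18561 in striatum. Of enriched stop-window m6A clusters, 14.9% ± 0.37 overlapped such a site in R6/2 cortex and 15.2% ± 0.25 in NT cortex (SD, n = 8 each; exact permutation p = 0.0461, adjusted p = 0.118). In striatum the shares were 7.35% ± 0.28 and 7.60% ± 0.23 (SD, n = 8 each; exact permutation p = 0.0706, adjusted p = 0.135). Neither difference passed the adjustment. A lower share in striatum than in cortex goes with fewer sites there, and the regions were not tested against each other for this value.

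Few tested stop windows were called in R6/2 striatum, and most of those called had fewer enriched clusters. The window's number of enriched clusters was divided by a size factor, and a change is the log2 value of R6/2 less that of NT, with 0.5 added before the logarithm, with the standard error (SE) and the Benjamini-Hochberg adjusted p of limma. Of 4330 windows tested, 111 were called at an adjusted p under 0.05, 96 lower and 15 higher, which is 2.56% of windows against 4.2% of all gene compartments tested together. In the same fit, the distal 3′ UTR had 51 compartments called higher and 147 lower, introns 26 and 46, and the 5′ UTR 5 and 12. Other coding sequence had 93 compartments called higher and 73 lower. Of the 111, 4 had no library with 2 or more clusters in the group in which they were low. They passed the filter on low values only through the other group and so had to differ (Gpm6b, Kifc2 and Rgs9 among them, whose levels are given without that test). In other called windows, such as Scn4b, Itpka, Cd4 and Fgf3, the NT libraries alone were enough for the filter and the R6/2 median was below 2. The filter favoured a call there. Raw counts did not overlap between the groups in 13 of the 111, or 0.3% of all windows tested. Without the NT female 3 library, 73 windows were called.

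Adjacent clusters often touch (25.1% to 46.1% of all listed clusters by library, a share not computed for stop windows alone). A second readout, the number of window bases under any enriched cluster, is therefore given beside the count. By covered bases, 82 of 7082 windows were called in R6/2 striatum (1.16%), 27 with more and 55 with fewer. Of the 111 windows called by clusters, 110 could be tested this way, 100 had the same direction and 17 were called, 16 with fewer bases and 1 with more. The 2 readouts did not call the same windows: in some the enriched stretch was shorter, and in others a stretch of similar length was listed as fewer clusters.

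Gpm6b, which encodes a membrane glycoprotein of the proteolipid protein family, had a lower mean log2 fold over input of its listed stop-window clusters in R6/2 striatum, by 0.29 ± 0.05 (SE; limma adjusted p = 0.0283). Its window held 3, 4 and 5 enriched clusters (lowest, median and highest of 8) in NT and 0, 0 and 1 in R6/2. The window entered the tests on clusters through the NT libraries alone, and the size of a change from values at 0 depends on the constant added, so these levels are a description. Covered bases were 90, 159.5 and 258 in NT and 0, 0 and 120 in R6/2. Beyond the window, its distal 3′ UTR went from 2, 2 and 3 clusters to 0, 0.5 and 2, where the NT libraries alone were again enough for the filter. Its 5′ UTR held 3, 5 and 8 in NT and 3, 4 and 6 in R6/2 (adjusted p = 0.345). A fit of each window against the other enriched clusters of its own gene called 1 window of 3444 (0.029%; 339 had an unadjusted p under 0.05), which was Gpm6b and had passed the same filter through NT alone. It needs all 8 NT libraries to pass, so without any one of them it was not tested. In cortex the Gpm6b window held 2, 2 and 6 clusters in NT and 1, 2 and 3 in R6/2 (-0.38 ± 0.19, adjusted p = 0.322). The difference of the R6/2 effect between cortex and striatum, fitted over the libraries of both regions, was 2.48 ± 0.30. This value rests on the same striatal counts at 0 and depends on the constant added, so it is a description too.

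Kifc2, a kinesin of the minus-end-directed class, had fewer covered bases and a lower log2 fold over input in R6/2 in both regions. Its window held 2, 3 and 5 clusters in NT and 0, 1 and 1 in R6/2 striatum, where it entered the test on clusters through the NT libraries alone. In cortex it held 3, 4 and 4 clusters in NT and 1, 1.5 and 2 in R6/2, without overlap. The NT libraries alone were enough for the filter there too, so the levels of both regions are a description. Median covered bases went from 295.5 to 119.5 in striatum (adjusted p = 0.0376) and from 308 to 142 in cortex (adjusted p = 2.61e-04). The mean log2 fold over input also fell, by 0.54 ± 0.05 in striatum (adjusted p = 1.71e-04) and by 0.50 ± 0.06 in cortex (adjusted p = 0.00157). Few enriched clusters lay elsewhere in the gene, at most 4 in any compartment of a library, and none of these compartments was tested.

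Cd4, the T-cell co-receptor that some macrophages also carry, had 4, 5 and 6 clusters in NT and 0, 0 and 3 in R6/2 striatum. The NT libraries alone were enough for the filter, with 1 R6/2 library at 3, and the R6/2 median was 0. The size of such a change depends on the constant added, so these levels are a description. Covered bases of the Cd4 window had a median of 89 in NT and 0 in R6/2, too short a stretch for the test. The distal 3′ UTR of Cd4 moved with it, from 4, 5 and 7 to 1, 1 and 2 clusters. The Fgf3 window, of a fibroblast growth factor gene, held 3, 3.5 and 6 clusters in NT and 0, 1 and 2 in R6/2. Its covered bases were 360 and 101 in the median (adjusted p = 0.0183). For the clusters of Fgf3 and of the Cd4 distal 3′ UTR, the NT libraries alone were also enough for the filter, so only their levels are given. In the 8 NT cortex libraries both windows were at 0 in every library, whereas in cortex of the antisense experiment Cd4 held 0, 0 and 2 clusters in PBS libraries and Fgf3 held 0, 1 and 1 in PBS and 0, 0 and 3 in ASO libraries. Microglial markers, listed because such cells can carry Cd4, had 5 windows tested in R6/2 striatum, none called, with changes below 0 in 5 and a median of -0.19, and the part of cell composition was not tested.

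Windows outside the rule for naming, chosen after their values were seen because both cluster count and covered bases were called lower in striatum, included Gpr139, Ror1, Tmem63b, Inhba, Kcnh4 and Mafa. Median covered bases went from 208 to 0 in Gpr139, an orphan receptor of the brain, and from 262 to 34.5 in Ror1, a Wnt receptor. For Tmem63b, a mechanosensitive cation channel, they went from 138 to 26, and its log2 fold over input fell by 0.37 (adjusted p = 0.0364). For Inhba, the activin A subunit, the medians were 260 and 92.5, and its log2 fold did not pass the test (0.25, adjusted p = 0.745). Zfp488 was the 1 window called with more covered bases as well as more clusters, from 138 to 256.

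Genes of medium spiny neurons, the projection neurons that make up most of the striatum, had fewer clusters around the stop codon but no called loss of covered bases, and 2 called decreases in enrichment over input. Of 27 listed genes tested, 13 were called lower (2.22% of all stop windows tested were; 1 of the 13, Rgs9, passed the filter through NT alone) and 0 higher, 22 changes were below 0 and the median was -0.58, against -0.02 over all 4330 windows. By covered bases 30 were tested, 0 were called lower and 1 (Arpp21, 0.36 ± 0.05, adjusted p = 0.0026) was called higher, with a median of -0.05 against -0.01 over all windows. These changes were below 0 in 25 and above 0 in 5, where 3954 of all 7082 windows were below 0. By log2 fold over input 36 were tested, 18 were above and 18 below 0, the median was 0.01 and Scn4b and Sez6 were called lower. Set against the rest of the gene, 24 were tested, none was called and the median was 0.10 against -0.06 over all 3444 genes.

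**Figure D4:**
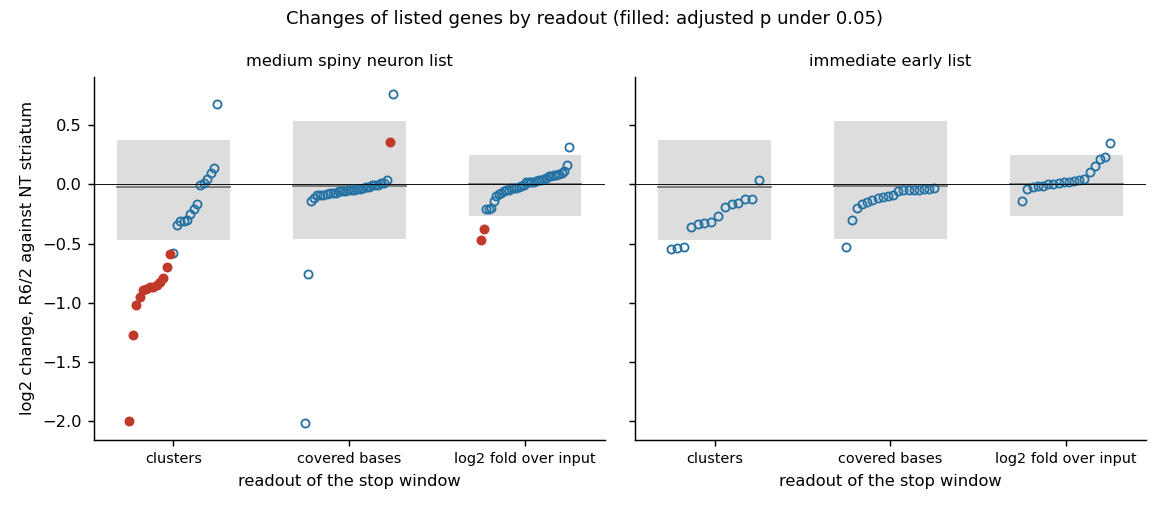
Log2 change (R6/2 against NT striatum) of each tested window of the medium spiny neuron list (left) and the immediate early list (right) in 3 readouts, filled red where the adjusted p was under 0.05, with the range from the lowest to the highest 5% of all stop windows in grey and their median as a line. Medium spiny neuron windows lie low by number of clusters, where 13 of 27 are called, and near the median of all windows by log2 fold over input.

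Drd1 and Penk, which mark the 2 projection neuron classes as the dopamine D1 receptor and the enkephalin precursor, showed the pattern. Other class markers were not called by clusters: Drd2 (-0.34, adjusted p = 0.163), Adora2a (-0.31, 0.388), Gpr6 (-0.16, 0.541) and Pdyn (-0.31, 0.293). The Drd1 window held 9, 11 and 14 clusters in NT and 5, 8 and 9 in R6/2 striatum, groups that met at 9 (-0.59 ± 0.09, adjusted p = 0.000573), while covered bases were 395, 399 and 401 in NT and 380, 392.5 and 400 in R6/2 (adjusted p = 0.197). Penk went from 5, 7 and 11 to 3, 3.5 and 4 clusters without overlap (-0.90 ± 0.13, adjusted p = 0.000274), with median covered bases of 189.5 and 188.5. Its log2 fold over input was 0.32 higher in R6/2, which did not pass the test (adjusted p = 0.0768).

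Adcy5, the adenylyl cyclase of striatal dopamine and adenosine signalling, went from 11, 15.5 and 18 to 6, 8.5 and 10 clusters without overlap (-0.85 ± 0.09, adjusted p = 3.13e-06), with median covered bases of 285 and 279 (adjusted p = 0.213). Pde10a, which breaks down cyclic nucleotides in these neurons, went from 7, 9.5 and 11 to 4, 4.5 and 7 clusters (-0.87 ± 0.13, adjusted p = 0.000294), with 219 and 215 covered bases. The Pde10a distal 3′ UTR (-0.90 ± 0.12, adjusted p = 0.000113) and introns (-1.07 ± 0.10, adjusted p = 2.33e-06) were called lower as well. Arpp19, a phosphoprotein that inhibits protein phosphatase 2A, went from 8, 13 and 15 to 3, 5 and 10 clusters (-1.02 ± 0.13, adjusted p = 5.85e-05), with 346.5 and 337 covered bases.

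In Lrrc10b, enriched clusters covered 403 of 403 window bases in all 16 striatal libraries. Covered bases cannot exceed the window, so this readout can hardly show a change there or in other windows covered nearly throughout. Lrrc10b was listed as 16, 19 and 20 clusters in NT and 9, 10 and 14 in R6/2, without overlap (-0.82 ± 0.09, adjusted p = 7.75e-06). Its distal 3′ UTR held 9, 11.5 and 22 clusters in NT and 2, 5 and 7 in R6/2 (-1.44 ± 0.12, adjusted p = 4.8e-07). Scn4b, the beta-4 subunit of voltage-gated sodium channels, had 2, 3.5 and 4 clusters in NT and 1, 1 and 2 in R6/2. The NT libraries alone were enough for the filter, so these levels are a description. The log2 fold over input of Scn4b fell by 0.38 ± 0.07 (adjusted p = 0.0248), with covered bases of 108 and 104.5. Rgs9, which ends dopamine D2 receptor signalling by G proteins, was the exception in covered bases, with a median of 253.5 in NT and 55 in R6/2 (-2.02 ± 0.54, adjusted p = 0.0728) and clusters of 2, 3 and 4 against 0, 0.5 and 1. The other called members (Itpka, Ido1, Rasd2, Cnr1 and Syndig1l) changed by -0.70 to -0.95 in clusters, and none was called in covered bases or log2 fold.

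**Figure D5:**
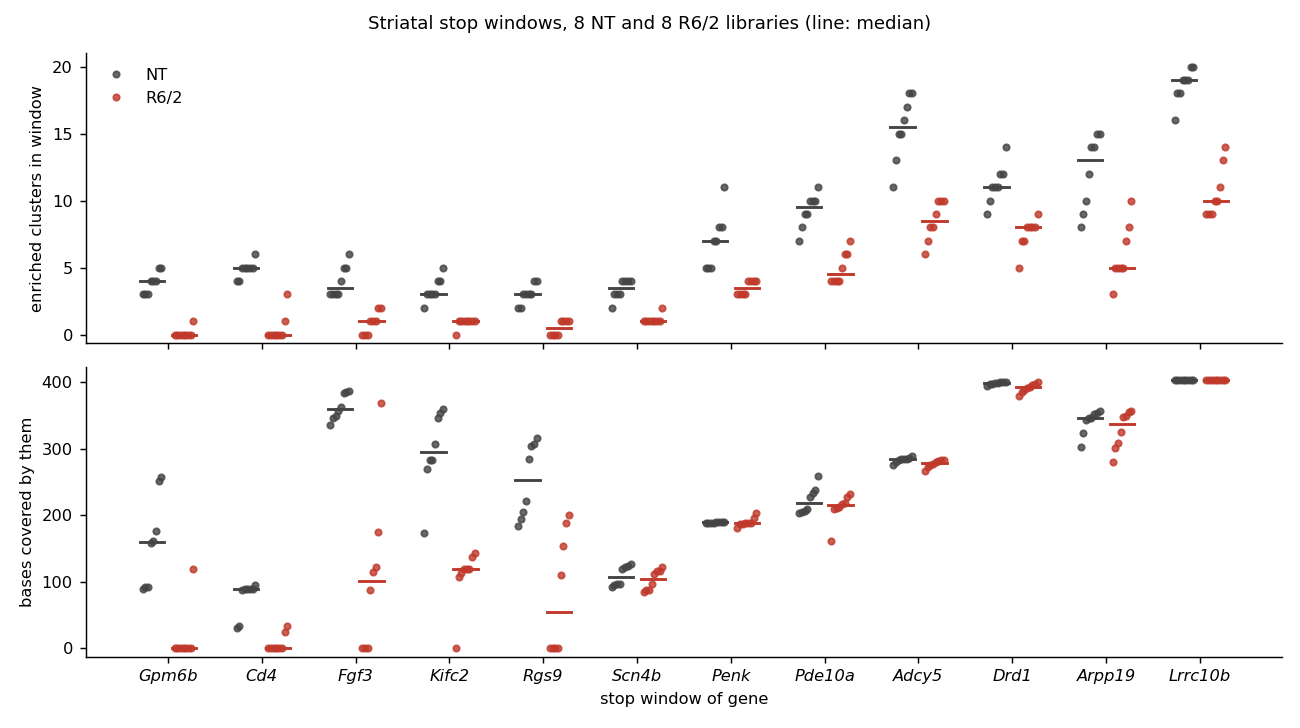
Enriched clusters (top) and window bases they cover (bottom) in 12 stop windows, 1 point per library of striatum (8 NT, 8 R6/2) with the median as a line. Gpm6b, Cd4, Fgf3, Kifc2 and Rgs9 have lower medians in R6/2 in both panels, whereas Adcy5, Drd1, Arpp19 and Lrrc10b differ mainly in the number of clusters.

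Other compartments of the same genes often moved with the window. Of the 96 windows called lower in striatum, 70 belonged to genes with another compartment tested, and in 35 of these another compartment was called lower too. Over all 3209 tested genes with another compartment, 176 had one called in the window's direction. The log2 fold over input of the windows called lower had a median of -0.06 (39 above and 56 below 0), and the 15 called higher had one of 0.01 (8 above and 7 below 0). Genes that the study lists as lower in the striatum of HD mouse models had 26 of 67 tested windows called lower and 0 higher (median -0.44), where 96 of all 4330 windows were lower and 15 higher. By covered bases 9 of 90 were called lower and 1 higher, where 55 of all 7082 windows were lower and 27 higher. By log2 fold over input 2 of 106 were lower and 1 higher (median 0.03), where 40 of all 8997 were lower and 5 higher. Their counterparts listed as higher had 1 of 15 called higher and 0 lower by clusters (median 0.16). RNA levels were not used here.

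Windows with more clusters in R6/2 striatum had smaller changes. Scn9a, which encodes the sodium channel Nav1.7, went from 1, 2 and 2 clusters in NT to 2, 3.5 and 5 in R6/2 (0.84 ± 0.17, adjusted p = 0.00569), and its other coding sequence from 0, 1 and 3 to 1, 4.5 and 7 (1.72 ± 0.28, adjusted p = 0.000833). Nkx2-2, a homeobox factor of oligodendrocyte precursors, had a median of 2.5 in NT and 5 in R6/2 (0.74 ± 0.18, adjusted p = 0.0245). The actin-binding Ccdc88a (0.65 ± 0.17, adjusted p = 0.0275), Klhl42 (0.64 ± 0.14, adjusted p = 0.0111) and Spred3, an inhibitor of Ras signalling (0.61 ± 0.17, adjusted p = 0.0477), followed. Spred3 was called in 3 of 16 fits that left out a library (adjusted p up to 0.0965), Ccdc88a in 11 (up to 0.059) and Nkx2-2 in 15 (up to 0.0564). None of these 5 was called in covered bases or in log2 fold, and all 5 overlapped between the genotypes.

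The immediate early genes and the m6A machinery had no called window in R6/2 striatum. Of 14 immediate early windows tested, 13 had a change below 0 with a median of -0.29, and none was called. By covered bases 18 of 18 were below 0 (median -0.09), again with none called. The 6 writers tested had 3 changes above and 3 below 0 (median -0.06), the 1 eraser had -0.07, and the 4 readers had 4 above 0 (median 0.22). Astrocyte and oligodendrocyte markers had 7 and 9 windows tested, none called, with medians of -0.07 and 0.02.

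Mean log2 fold over input compares IP with input reads within a sample. Of 8997 stop windows with a listed cluster in every striatal library, 45 were called in R6/2, 40 lower and 5 higher, which is 0.5% against 0.355% of all compartments in that fit. Leaving out 1 library gave 26 (NT female 3) to 38 (NT male 1) windows. The lowest were Pcgf2, a Polycomb subunit, with 1.41, 2.08 and 2.57 in NT and 0.63, 1.26 and 1.71 in R6/2 (-0.82 ± 0.08, adjusted p = 1.61e-04), the receptor kinase gene Ltk (-0.79 ± 0.13, adjusted p = 0.011) and Ydjc (-0.76 ± 0.09, adjusted p = 7.03e-04), whose groups did not overlap. The highest were Krt10, a keratin (0.50 ± 0.08, adjusted p = 0.0134), the kinase gene Lrrk2 (0.42 ± 0.08, adjusted p = 0.0319) and the autophagy gene Atg12 (0.42 ± 0.07, adjusted p = 0.0213). The values of Krt10 and Lrrk2 rest on listed clusters that were mostly not enriched, since the Lrrk2 window held 0 enriched clusters in all 16 striatal libraries and the Krt10 window 0 in all 8 NT and 0, 1 and 2 in R6/2 libraries. Lrrk2 was called in 4 of 16 fits that left out a library (adjusted p up to 0.0721). Windows lower by both clusters and log2 fold numbered 7, or 7.29% of the 96 and 17.5% of the 40.

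In cortex, 62 of 4020 windows were called in R6/2, 46 lower and 16 higher, or 1.54% against 2.47% of all compartments tested, and 1.14% of windows were called lower. The filter let 4 of the 62 through by 1 group only, and 6 did not overlap between genotypes, or 0.149% of all windows tested. In others, such as Kifc2, Arc and Penk, the NT libraries alone were enough for the filter and the R6/2 median was below 2. In Trim25 the R6/2 libraries alone were enough and the NT median was below 2. Without the NT male 1 library or the R6/2 male 3 library, 41 were called. By covered bases 85 of 6812 windows were called (1.25%), and of the 62 it called 12 in the same direction, 9 with fewer and 3 with more bases. Set against the rest of the gene, 3 of 3114 were called, 0.0963%, all lower (Cul9, Pcyt1a and Zfhx3). Without 1 library, Pcyt1a was called in 2 of the 8 fits in which it was tested and Zfhx3 in 4 of 16. Their log2 fold over input and their number of clusters were not called.

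Arc, an immediate early gene that acts at synapses, went from 2, 4 and 7 clusters in NT to 1, 1 and 3 in R6/2 cortex (-1.23 ± 0.24, adjusted p = 0.00942), with covered bases of 275 and 272 in the median and a log2 fold that was 0.08 higher (adjusted p = 0.715). It was the 1 called of 14 immediate early windows tested in cortex, of which 12 had a change below 0. Ier5l went from 5, 8 and 11 to 3, 3.5 and 6 clusters (-1.10 ± 0.15, adjusted p = 0.000713), and its covered bases from 344.5 to 336 (adjusted p = 0.0338). Rapgefl1 changed by -0.96 ± 0.23 (adjusted p = 0.0273) and was called in 8 of 16 fits that left out a library. Hfe2, outside the rule for naming and chosen after its values were seen, had 218 covered bases in NT and 0 in R6/2 in the median.

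Of the medium spiny neuron genes, 16 windows were tested in cortex. Penk went from 2, 3 and 4 to 1, 1.5 and 2 clusters (-0.93 ± 0.17, adjusted p = 0.00653), Arpp19 from 6, 7.5 and 10 to 3, 5 and 6 (-0.76 ± 0.12, adjusted p = 0.00223) and Adora2a, an adenosine receptor, from 2, 3 and 4 to 1, 2 and 2 (-0.80 ± 0.16, adjusted p = 0.00954). These were the 3 called, with 15 of 16 below 0 and a median of -0.24. By covered bases 26 were tested, with 2 lower and 0 higher. Adora2a also lost covered bases, from a median of 157.5 to 93.5 (-0.54 ± 0.11, adjusted p = 0.0211). Higher in R6/2 cortex were Trim25, a ubiquitin ligase (1.01 ± 0.19, adjusted p = 0.00653), Nfya, a subunit of NF-Y (0.80 ± 0.20, adjusted p = 0.0373), Basp1, a growth cone protein (0.73 ± 0.14, adjusted p = 0.00808), the Polycomb gene Cbx8 (0.72 ± 0.18, adjusted p = 0.0398) and the lipid kinase gene Dgke (0.70 ± 0.15, adjusted p = 0.0168). Nfya was called in 4 and Cbx8 in 5 of 16 fits that left out a library. Basp1 was also called with more covered bases, from 135.5 to 194.5 (adjusted p = 0.0253).

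By log2 fold over input, 30 of 9041 cortical windows were called, 0.332% against 0.31% of all compartments, 29 lower and 1 higher. Leaving out 1 library gave 9 (R6/2 female 4) to 25 (NT male 2) windows, and 5 were called among windows listed in at least 50% of the libraries of each group. The lowest were Cdc25b, a cell-cycle phosphatase (-0.89 ± 0.15, adjusted p = 0.0238), the lysosomal channel gene Mcoln1 (-0.79 ± 0.13, adjusted p = 0.0219) and Ehbp1l1 (-0.67 ± 0.09, adjusted p = 0.00459). Ppargc1b, a transcriptional coactivator, was the 1 higher (0.60 ± 0.09, adjusted p = 0.0105).

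Calls of the 2 regions had 13 lower windows in common, which is 13.5% of the 96 striatal and 28.3% of the 46 cortical ones (Arpp19, Avpi1, Ddit4l, Gsg1l, Hrh3, Ier5l, Kifc2, Penk, Per1, Pitpnm2, Ssbp4, Tyro3 and Usp2). The regions have separate libraries that may come from the same mice, so the calls may not be independent. Scn9a was the 1 higher window in common, and none was called in opposite directions. Kifc2 passed the striatal filter through NT alone. The fit of the R6/2 effect between regions called 2 of 4105 windows (0.0487% against 0.0716% of all compartments), Gpm6b and Onecut2. Both had a group at or near 0, so they are described only. The Onecut2 window, of a homeobox gene, held 2, 2 and 2 clusters in R6/2 and 2, 2 and 3 in NT striatum, and 0, 2 and 2 in R6/2 cortex, where NT was at 0 in all 8 libraries (difference 2.01 ± 0.35, a value that depends on the constant added).

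More windows were called between regions than between genotypes. Between NT cortex and NT striatum 306 of 4109 windows were called, 149 higher and 157 lower in cortex, or 7.45% against 11.3% of all compartments, with 3.63% higher and 3.82% lower. The filter let 20 through by 1 region only, and 49 did not overlap, or 1.19% of all windows tested. In others, such as Tmem215, Tmem200a and Rasd2, 1 region alone was enough for the filter and the other had a median below 2. By covered bases 379 of 6942 windows were called (5.46%), and of the 306 it called 93 in the same direction. By log2 fold over input 25 of 9005 were called, 0.278% against 0.432% of all compartments. The window changed against the rest of its gene in 42 of 3182 genes (1.32%), 25 higher and 17 lower in cortex.

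Among the windows with the largest increases in cortex were those of Tmem215 (1.81 ± 0.29, adjusted p = 1.99e-04), Pamr1 (1.58 ± 0.18, adjusted p = 3.76e-06) and Tmem200a (1.51 ± 0.24, adjusted p = 2.08e-04). Cortical excitatory neuron genes had 6 of 9 windows called higher in cortex and 0 lower. Medium spiny neuron genes had 20 of 25 called lower, 3 of which (Drd2, Ido1 and Scn4b) passed the filter through striatum alone, and 1 higher. Lrrc10b held 1, 2 and 6 clusters in cortex and 16, 19 and 20 in striatum (-2.52 ± 0.21, adjusted p = 7.62e-08). For windows that passed through 1 region alone only levels are given. Frzb, a secreted Wnt antagonist, held 2, 3.5 and 5 clusters in cortex and 0, 1 and 1 in striatum. Cd4 and Fgf3 were at 0 in all 8 cortical libraries, Ido1 held 0, 0 and 1 there against 3, 4 and 7 in striatum, and Inf2, an actin-regulating formin, 0, 0.5 and 1 against 3, 4.5 and 6.

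The dopamine receptor windows of Drd1 and Drd2 had enriched clusters in every NT cortex library, at lower numbers than in striatum. Drd1 held 3, 4 and 6 clusters there against 9, 11 and 14 in striatum (-1.31 ± 0.12, adjusted p = 1.73e-07), without overlap and with covered bases of 374.5 and 399 in the median. Drd2 held 1, 1 and 1 against 3, 4 and 4, and passed the filter through striatum alone. Rasd2, the striatal small GTPase Rhes, had 1, 1.5 and 2 against 4, 7 and 9 (-1.75 ± 0.16, adjusted p = 2.74e-07). The 1 list member higher in cortex was Arpp21, an RNA-binding phosphoprotein, with 5, 6.5 and 9 clusters against 4, 4.5 and 7 (0.54 ± 0.13, adjusted p = 0.00792) and covered bases of 350.5 and 261 (adjusted p = 3.73e-05). Other called members (Arpp19, Rarb, Rgs9, Adcy5, Pde10a, Meis2, Pdyn, Strip2, Cnr1, Penk, Scn4b, Gpr6, Bcl11b and Syndig1l) changed by -0.44 to -2.20 in clusters, although by covered bases Pdyn, Cnr1 and Penk turned to 0.03, 0.03 and 0.04, none of them called. Pdyn was called by clusters in 5 and Cnr1 in 7 of 16 fits that left out a library.

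Penk was higher in cortex by log2 fold over input (0.51 ± 0.08, adjusted p = 0.00847) while lower in clusters (-0.94 ± 0.13, adjusted p = 5.92e-05). Against the rest of its gene the Penk window was higher in cortex (1.85 ± 0.41, adjusted p = 0.0197), as were Syndig1l (1.39 ± 0.23, adjusted p = 0.0024) and Arpp21 (0.76 ± 0.15, adjusted p = 0.0105). By log2 fold the highest were Bmt2, Bcl2l13 and Rfx4 (0.61 to 0.66) and the lowest Gm49601, Pa2g4 and Ncald (-0.73 to -0.49), of which Gm49601 and Pa2g4 held 0 enriched clusters in all 8 NT cortex libraries, so that their values there rest on listed clusters only. Of 16 fits that left out a library, Bcl2l13 and Rfx4 were called in 3, Ncald in 5 and Bmt2 in 11. Relative to their genes, Ociad1 was higher in cortex (1.94), the value of Gpr139 (1.86) depends on the constant added because its window was at 0 in all 8 cortical libraries, and Adra1d, Lurap1l and Rtn4rl2 lower (-2.10, -2.08 and -1.91). Nr4a2, the 1 called immediate early gene, held 4, 4.5 and 6 clusters in cortex and 2, 2.5 and 4 in striatum (0.84 ± 0.16, adjusted p = 0.00103).

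In the antisense experiment, 99.2% to 99.3% of cluster intervals were identical between libraries of 1 treatment and 1.96% to 1.97% between treatments, whereas libraries of the other groups shared 0.557% to 1.07%. Numbers of clusters within a treatment were nearly the same, as in the Kifc2 window with 13, 13 and 13 in ASO and 10, 10 and 10 in PBS, and were not used as a measure of the spread between mice. A fit on clusters called 2801 of 5105 windows (54.9% against 47.4% of all compartments), and one on covered bases 2705 of 7156 (37.8%), which are given only to show this. By log2 fold over input, which was scored per library, limma called 0 of 12690 windows (0% of all compartments too), 1414 had an unadjusted p under 0.05, and 7 were called when the highest fold of a window was used. In library values, 3 against 3 cannot reach a p below 0.1.

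Tardbp, the target of the ASO, had no listed cluster in its stop window in any of the 38 libraries, so the knockdown cannot be read there. Its distal 3′ UTR held 14, 14 and 14 enriched clusters in PBS and 6, 6 and 7 in ASO libraries, numbers that come from intervals shared within a treatment and do not measure the spread between mice.

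Across the series, 4585 of the 21612 stop windows were enriched in all 38 libraries and 9407 in at least 1, while 3045 were listed in at least 19 libraries and enriched in none.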

How the data were processed

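The deposited lists of m6A eCLIP clusters were used as deposited. The authors prepared poly-dT selected RNA with the Eclipse Bioinnovations m6A kit and called clusters with CLIPper, on mm10 per the submitters' processing notes. The aligner is not given in the sources used here. Per the deposited lists, each cluster carries a −log10 p and a log2 fold of IP over input, computed by the authors from read numbers that the lists do not hold, so depth is unknown.

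Clusters were assigned by midpoint to GENCODE M21. A cluster was enriched at p of 0.001 or less, which is looser than the study's threshold, since that also asks for a log2 fold of 3. Enriched clusters per compartment were divided by size factors, and compartments with 2 or more in at least 50% of the libraries compared were tested on log2 values (0.5 added) with limma 3.58.1 in R 4.3.3, with sex as a covariate. Covered bases (25 added, 50 needed) and mean log2 fold over input were fitted likewise, over the whole table, and p-values were Benjamini-Hochberg adjusted with a threshold of 0.05. Library values were compared by exact permutation within sex (4900 labelings, or 20 for 3 against 3) over 23 tests. Python 3.11.15, pandas 2.3.3, numpy 2.4.6, scipy 1.17.1 and ncls 0.0.70 were used. Fits were tested on simulated data with 200 features changed: 4-fold changes in clusters were recovered in 89% in striatum and 86% in cortex, and 2-fold changes in 19.5% and 15%.

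Windows named are the 5 highest and 5 lowest called whose enriched clusters averaged 2 or more and whose sign was the same in both sexes, called members of the medium spiny neuron, immediate early and m6A machinery lists, and the 3 highest and 3 lowest called by the other readouts. Exceptions are stated, and some windows that met the rule are not reported here. Members and lists were chosen with earlier results of these data known. Alternatives changed the enrichment threshold, window width, filter, constant, scaling, covariates and libraries.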

Additional observations from a re-analysis of the deposited data

Results flagged for a closer look

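Among 188 groups of 8 libraries behind the named windows, 14 held a library far from the other 7, and for measurements on a continuous scale chance alone gives about 1 in 20 groups; that share was not computed for small whole numbers such as these. In striatum, these included NT male 2 with 7 clusters in Arpp21, NT female 1 with 5 in Ccdc88a, NT male 4 with 3 in Onecut2, R6/2 female 3 with 3 in Cd4, R6/2 male 2 with 1 in Gpm6b, R6/2 male 1 with 0 in Kifc2 and with 2 in Scn4b, and NT male 3 with a log2 fold over input of 1.31 in Ncald. In cortex, they were NT male 3 with 6 clusters in Drd1 and 6 in Gpm6b, R6/2 male 3 with 6 in Ier5l, R6/2 female 1 with 1 in Nfya and NT female 2 with 1 in Syndig1l. Where the other libraries of a group held nearly 1 value, as in Kifc2, Gpm6b, Onecut2, Scn4b and Syndig1l, a step of 1 cluster was enough to stand apart.

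The limma interaction term of genotype and region was 2.48 ± 0.30 in Gpm6b and 2.01 ± 0.35 in Onecut2. Both values rest on a group at or near 0 and depend on the constant added, so they are a description. The change of Gpm6b in cortex did not pass the test.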

How the results depend on the processing

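Counts of windows called depended on the enrichment threshold and on window width, and the cause was not tested. With the study's threshold (log2 fold of at least 3 as well), windows called by clusters went from 111 to 1 in R6/2 striatum, 62 to 0 in cortex, 306 to 11 between regions, 2801 to 70 in the antisense experiment and 2 to 0 for the difference of effects, and those relative to the gene to 0, 0, 1 and 21. Only 15 of the 111, 10 of the 62 and 57 of the 306 passed the filter at that threshold. Of these, 15, 10 and 55 kept their direction. A p of 1e-10 gave 176 in striatum and 1620 in the antisense experiment. All listed clusters gave 56, 21, 7618 and 0 (striatum, cortex, antisense, difference), and relative to the gene 3, 1, 26 (regions) and 9637. With 100 bases on each side, clusters gave 51, 22 and 135 (regions), log2 fold 14 in cortex, 12 between regions and 2 in the antisense experiment, and relative values 2, 0 and 22. With 400 bases, clusters gave 192, 106 and 587. A filter of 1 cluster gave 107 in cortex and 474 between regions, and the number of enriched clusters as a covariate 18 and 132. Covered bases relative to the gene gave 42, 49, 192 and 1165. By log2 fold, the highest of a window gave 10 in cortex, 9 between regions and 7 in the antisense experiment, no centring 15 and 81, and windows listed in at least 50% of libraries 21 in striatum and 5 in cortex. Males alone gave 13, 1 and 82 and females alone 27 and 0 by clusters (fewer samples, chosen after the data were seen).

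Leaving out 1 library gave 73 to 111, 41 to 55 and 248 to 321 by clusters, 26 to 38, 9 to 25 and 9 to 24 by log2 fold, and 0 to 4, 0 to 6 and 24 to 35 relative to the gene (striatum, cortex, regions), 2298 to 2425, 0 to 0 and 1382 to 1532 in the antisense experiment, and 2 to 6 for the difference. Correlations of same-numbered deviations were between -0.08 and 0.05, too weak to tell whether replicate numbers pair the libraries. Between regions in NT they ran from 0.006 to 0.046 (median 0.028, against -0.008 for other numbers). With the replicate block, log2 fold gave 11 in striatum, 0 in cortex and 3 between regions, relative values 2 in striatum, and clusters 74, 53 and 271.

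In cortex the share in stop windows was -0.45 (adjusted p = 0.219) at the study's threshold and -0.64 (0.0642) with 100 bases, the number of clusters 466 (0.0233) at the study's threshold, and with the replicate block the upstream share 0.76 (0.0449) and the median log2 fold 0.0614 (0.0449). Between regions, the upstream share was -0.15 (0.742) at the study's threshold and -0.85 (0.0642) with 100 bases, while at p of 1e-10 the number of clusters was -1774 (0.0233) and the DRACH share 0.97 (0.031). Without 1 library, the stop-window share ranged from -1.20 to -0.61 in striatum and -1.35 to -0.89 in cortex, the upstream share from 0.55 to 0.97 in cortex and -1.26 to -0.87 between regions, and the DRACH share from 0.77 to 1.01. Reversed by covered bases were Ccdc88a (-0.000154, striatum), Pdyn (0.0264), Cnr1 (0.0338) and Penk (0.0431, all 3 between regions).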
